A study of Homo sapiens with 18 samples.

Results

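This report describes the mRNA levels that A1847 cells reached under endoplasmic reticulum (ER) stress with and without knockdown of XBP1. A1847 is an established line of high-grade serous ovarian cancer cells. The comparison took 6 of the 18 RNA-seq libraries of the study, 3 of control cells and 3 of XBP1 knockdown cells, all treated with 5 μg/ml tunicamycin for 8 h. The control cells were labelled wild type for both CARM1 and XBP1, and the labels do not say whether they carried a control vector. The knockdown cells were CARM1 wild type and carried, per the study's methods, a lentiviral short hairpin RNA against XBP1. Libraries of the same 2 cell types treated with vehicle, 3 of each, and of CARM1 knockout cells with and without tunicamycin, 3 of each, are used below where they show how a gene behaved outside this comparison. All values are read counts scaled to library size (CPM) from sequencing of mRNA 3′ ends, and a log2 fold change is that of knockdown over control cells unless another contrast is named.

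Tunicamycin blocks the first step of N-linked glycosylation, so that unfolded glycoproteins build up in the ER. The unfolded protein response (UPR) then runs through 3 sensors, IRE1α, PERK and ATF6. IRE1α splices the XBP1 mRNA, and the protein made from the spliced form, XBP1s, is a transcription factor that raises genes of protein folding, ER-associated degradation and vesicle transport. PERK acts through translation and the factor ATF4, and ATF6 is itself cut into a transcription factor. The counts are sums over all reads of a gene, so spliced and unspliced XBP1 could not be told apart here.

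Total counts were 11774445 to 12965747 in the control libraries with tunicamycin and 11252147 to 13858603 in the knockdown libraries with tunicamycin. Log2 CPM correlated at r = 0.986 to 0.989 between libraries of a group and at r = 0.980 to 0.985 between libraries of different groups, as a description across genes. The counts of replicate libraries differed by more than counting error, with a chi-square per degree of freedom of 2.45 to 6.49 over the 6 replicate pairs, of which the first and second control libraries were farthest apart. The labels number the replicates but do not say that they came from separate cultures, so the p-values measure the spread between these libraries, which may be technical. The line was checked against epithelial ovarian markers. KRT8 and KRT18 were well above 100 counts in every library, whereas PAX8, WT1, MUC16, MSLN, SOX17, EMX2 and ESR1 had at most 2 counts in any of the 6 libraries, so these 7 of the 14 markers listed were at or near 0. EPCAM had 22 to 42 counts, and KRT7, CDH6 and FOLR1 at most 13. The 9 markers tested, 3 of them lower, summed to 463 to 490 CPM in control and 199 to 215 CPM in knockdown libraries.

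XBP1 (ENSG00000100219; GRCh37 chromosome 22, 29190543 to 29196585, minus strand) was at 153, 148 and 148 CPM in the control libraries with tunicamycin and at 69.0, 73.7 and 72.1 CPM in the knockdown libraries. The groups did not overlap (−1.06 ± 0.05, SE, on the log2 scale, adjusted p = 5.4e-09). With vehicle the means were 46.0 ± 4.50 CPM (SD, n = 3) in control cells and 25.4 ± 1.25 (SD, n = 3) in knockdown cells. XBP1 mRNA in tunicamycin-treated knockdown cells was therefore above that of unstressed control cells, and below that of stressed ones.

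Under tunicamycin, knockdown cells had lower mRNA of 1481 genes (8.55% of the 17317 tested) and higher mRNA of 1210 genes (6.99%) at an adjusted p under 0.05. The lower genes were shifted further, with a median log2 fold change of −0.44 (quartiles −0.72 and −0.29) against 0.33 (quartiles 0.24 and 0.48) for the higher genes. At least 2-fold differences were found for 199 of the lower and 83 of the higher genes. CPM values did not overlap between the groups for 1415 of the lower and 1177 of the higher genes, where 15.8% and 15.7% of all tested genes did not overlap in each direction. These totals depended on single libraries. Without the third control library 906 genes were lower and 617 higher, without the second knockdown library 1118 and 794, without the third 1019 and 724, and 798 lower and 499 higher genes were called whichever of the 6 libraries was left out.

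**Figure D1:**
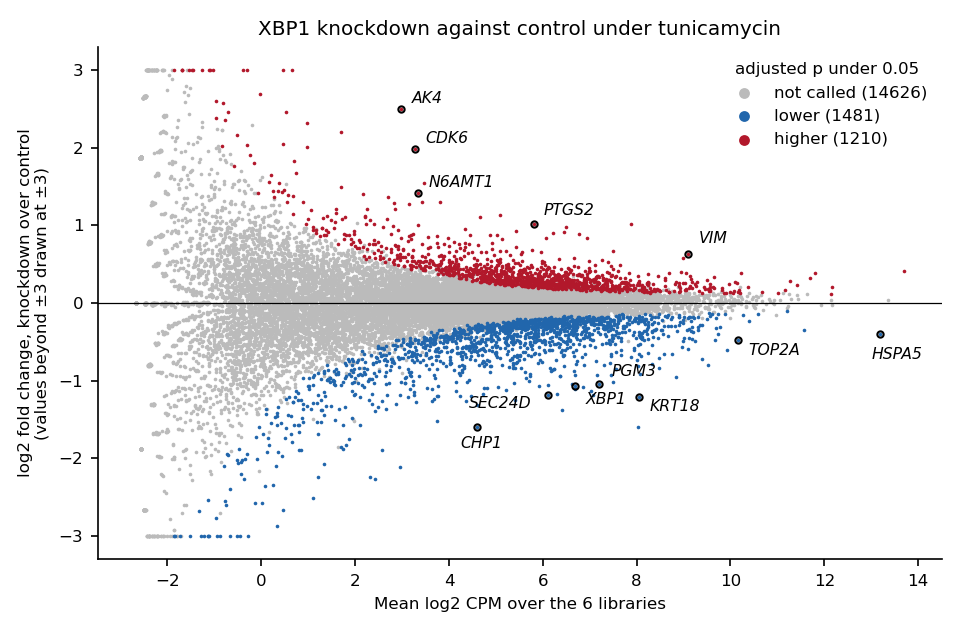
Log2 fold change of XBP1 knockdown over control cells under tunicamycin (y axis) against the mean log2 CPM over the 6 libraries (x axis), 1 point per tested gene. Blue points are the 1481 lower genes, red points the 1210 higher genes and grey points genes not called; XBP1 lies at −1.06 and HSPA5, the gene with the highest level among those labelled, at −0.39.

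Genes of the machinery that folds, modifies, degrades and moves proteins in the ER and early Golgi were often lower in knockdown cells. Most of the 1481 lower genes, 1357, lay outside the 8 lists of this machinery. Of 244 tested genes in 8 lists of this machinery, 124 (50.8%) were lower and 4 (1.64%) were higher in knockdown cells, against the backgrounds of 8.55% and 6.99%. Their median log2 fold change was −0.22, beside 0.0008 for all tested genes. With vehicle the same genes had a median of −0.005, and 8 were lower and 2 higher, where 3.03% and 2.07% of all tested genes were called. The interaction term, which asks whether the knockdown difference itself changed between vehicle and tunicamycin, was below 0 for 71 of the 244 and above 0 for none, beside 1.67% and 0.364% of all tested genes. Without the third control library 102 of the 244 were lower and none higher. In bulk RNA, fewer cells of a type and less RNA per cell cannot be told apart.

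Genes of translocation, the step at which a new protein enters the ER, were lower in 20 of 36 cases and higher in none (median log2 fold change −0.31), and the same number was lower without the third control library. SSR3, a subunit of the translocon-associated TRAP complex, was at 862, 850 and 863 CPM in control and 499, 537 and 530 CPM in knockdown cells (log2 fold change −0.72 ± 0.04, SE, adjusted p = 1.7e-08). The knockdown libraries held well under the lowest control value. All 4 TRAP genes were lower: SSR1 by a log2 fold change of −0.68, SSR2 by −0.64 and SSR4 by −1.11. SSR4 was the least even of them, at 125, 168 and 175 CPM in control and 98.1, 53.6 and 63.0 CPM in knockdown cells. The SEC61 channel, through which the chain passes, was lower in all 4 genes, with log2 fold changes from −0.54 to −0.35, among them SEC61B (318, 315 and 316 CPM against 220, 215 and 216 CPM). SRP19, a subunit of the particle that brings ribosomes to the ER, was at 262, 236 and 253 CPM in control and 178, 161 and 154 CPM in knockdown cells (log2 fold change −0.61, adjusted p = 5.2e-06).

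The COPII coat, which buds vesicles off the ER, had 17 of 31 tested genes lower and none higher (median −0.26). SEC24D, a cargo-binding subunit, had the lowest log2 fold change of this list: 109, 101 and 103 CPM in control against 45.2, 45.5 and 47.0 CPM in knockdown cells (log2 fold change −1.19 ± 0.06, SE, adjusted p = 5.4e-09). With vehicle SEC24D was at 6.12 ± 0.56 and 5.84 ± 1.39 CPM (SD, n = 3) in control and knockdown cells, and was not called. SEC23B, an inner coat subunit, SEC31A of the outer cage and PREB, which loads the coat's GTPase, were lower by log2 fold changes of −0.78, −0.78 and −0.67. The list of cargo receptors, the COPI coat and retrieval had 24 of 38 genes lower and 1 higher (median −0.28). COPB2, a COPI subunit of the retrograde route, was at 299, 293 and 308 CPM in control and 192, 183 and 181 CPM in knockdown cells (−0.69 ± 0.05, SE, adjusted p = 8.3e-08). Of the 9 COPI coat genes 5 were lower, and COPZ1 was higher by 0.21. The receptors that bring escaped chaperones back, KDELR1, KDELR2 and KDELR3, were lower by −0.19, −0.53 and −1.21, LMAN1, a lectin cargo receptor, by −0.60, and GOLGB1, a Golgi tether, by −0.84.

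ER-associated degradation had 19 of 38 genes lower and 1, TRIM13, higher (median −0.22), the latter in 3 of the 6 fits with a library left out. ERLEC1, a lectin that reads trimmed glycans, went from 261, 246 and 257 CPM to 145, 138 and 140 CPM (−0.85 ± 0.05, SE, adjusted p = 1.7e-08). SELENOS and SELENOK, selenoproteins of the retrotranslocation complex, were lower by −0.81 and −0.74, and DERL3, a channel component, by −0.85. HERPUD1, of the same machinery, was not called (320, 303 and 317 CPM against 306, 275 and 301 CPM). The glycan list had 19 of 44 genes lower and 2 higher (median −0.20). Leaving out the third control library left 12 lower and none higher. PGM3, which makes a UDP-N-acetylglucosamine precursor, was at 206, 212 and 213 CPM in control and 99.8, 106 and 99.7 CPM in knockdown cells (−1.05 ± 0.05, SE, adjusted p = 5.4e-09), GFPT1, of the same hexosamine route, was lower by −0.45 and MOGS, the first trimming glucosidase, by −0.91. The higher members, ALG13 (0.38) and MPDU1 (0.23), were each called in 2 of the 6 fits with a library left out. Of the 8 genes of UFMylation, a ubiquitin-like modification of ribosomes at the ER, 5 were lower and none higher, among them UFM1 (−0.55) and UFL1 (−0.39), and 3 were lower without the third control or the third knockdown library.

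Chaperones were affected less evenly. Of 28 chaperones and co-chaperones 12 were lower (9 without the third control library) and none was higher, with a median of −0.09, and of 22 disulfide isomerases and oxidases 8 were lower and none higher (median −0.12). HSPA5, the ER chaperone BiP, was at 10830, 10500 and 10730 CPM in control and 7978, 8243 and 8179 CPM in knockdown cells (−0.39 ± 0.03, SE, adjusted p = 1.3e-07). The difference was similar in size with vehicle (−0.32), and its interaction term was not called (−0.09, adjusted p = 0.40). FKBP14, a prolyl isomerase, was lower by −0.93, DNAJB9 by −0.64, DNAJC10 by −0.48, and the oxidase ERO1B by −0.83. Among 10 abundant chaperones and calcium-binding proteins only HSPA5, HYOU1 (−0.14) and HSP90B1 (−0.10) were lower, the latter pair not without the third control library (adjusted p = 0.14 and 0.18). CALR (0.13, adjusted p = 0.17), CANX (0.04, adjusted p = 0.58), PDIA6 (−0.05, adjusted p = 0.45) and SDF2L1 (0.00, adjusted p = 1.00) were not called. SSR4, SRP19, HERPUD1, the KDEL receptors other than KDELR3 and the genes of these 10 other than HSPA5 were named after their values had been seen.

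**Figure D2:**
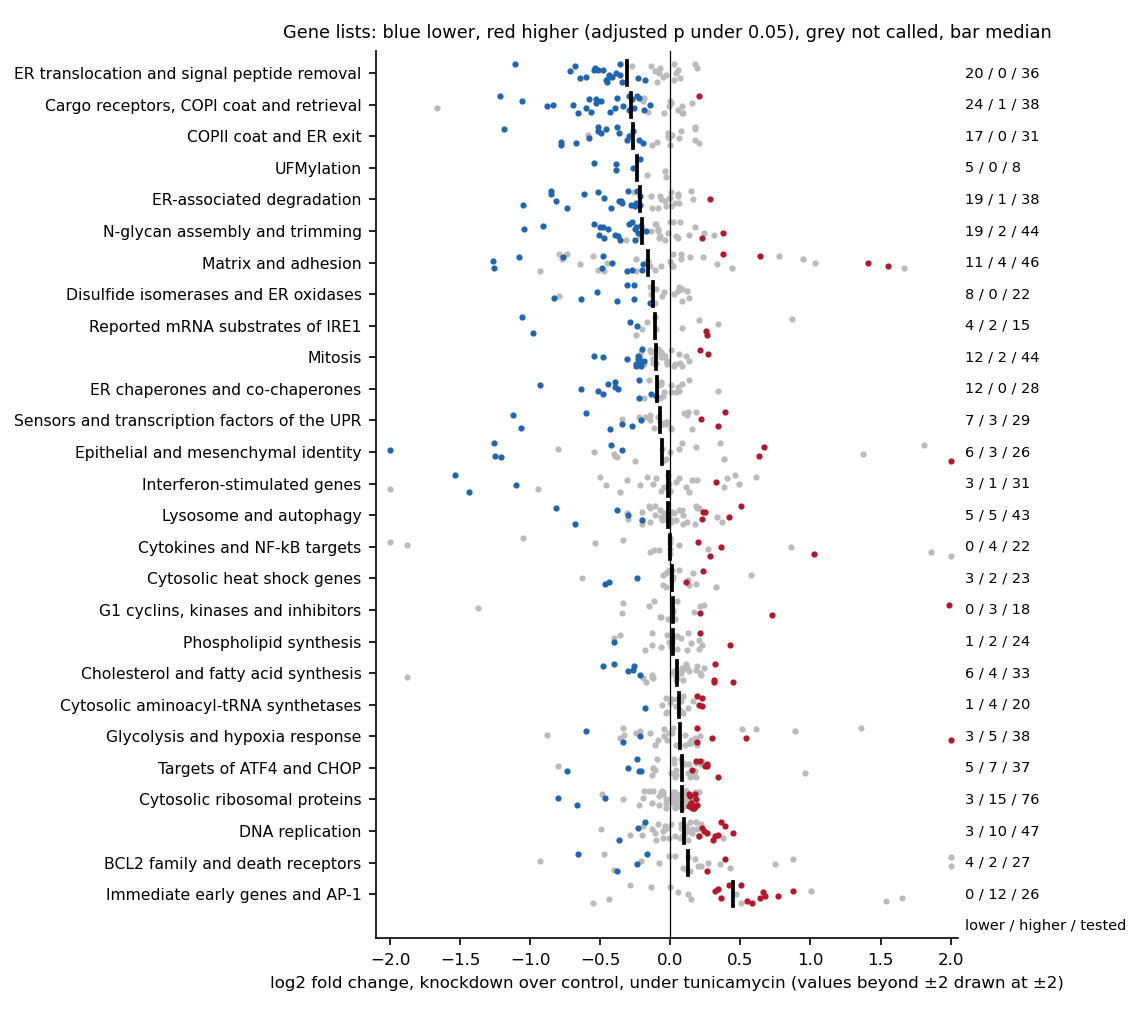
Log2 fold change of knockdown over control cells under tunicamycin (x axis) for every tested member of 27 gene lists (y axis), ordered by their median, drawn as a black bar. Blue points were lower and red points higher at an adjusted p under 0.05; the lists of translocation, transport, degradation and glycan genes lie to the left (medians −0.31 to −0.20) and the immediate early genes to the right (median 0.44).

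The regulators of the UPR themselves split. Of 29 sensors and factors 7 were lower and 3 higher, and with single libraries left out 4 (the second knockdown library) to 10 were lower, and 1 was higher without the first control, the third control or the third knockdown library. Besides XBP1, the lower ones were WFS1, an ER membrane protein that restrains ATF6 (51.7, 55.8 and 56.6 CPM against 25.3, 23.1 and 26.6 CPM; −1.13, adjusted p = 9.5e-08), ATF6 (−0.43, adjusted p = 0.00019), CREB3L1 (−0.60), CREB3L2 (−0.28), CREB3 (−0.21) and PPP1R15A (−0.34). ATF3, a stress-induced factor, was higher (0.39, adjusted p = 0.00049), as were NFYA (0.34) and NFYB (0.22), subunits of the factor that binds CCAAT boxes. The calls of CREB3, PPP1R15A and NFYB were lost in at least 4 of the 6 fits with a library left out. ATF4 was at 1461, 1392 and 1510 CPM in control and 1438, 1423 and 1410 CPM in knockdown cells (−0.03, adjusted p = 0.69). DDIT3, which encodes CHOP, was at 297, 293 and 288 CPM against 318, 326 and 313 CPM (0.13, adjusted p = 0.065), and neither the sensor ERN1 (−0.15, adjusted p = 0.34) nor EIF2AK3, the gene of PERK (−0.18, adjusted p = 0.19), was called. Among 37 target genes of ATF4 and CHOP 5 were lower and 7 higher, with a median of 0.08, beside 8.55% and 6.99% of all tested genes. Lower genes numbered 3 without the third control library or any 1 knockdown library, and higher genes 4 without the third knockdown library. SESN2 (0.25), SLC38A2 (0.34), SLC1A5 (0.26) and TNFRSF10B (0.26), a death receptor, were higher, whereas SLC1A4 (−0.74), PSAT1 (−0.30), GADD45A (−0.24) and GDF15 (−0.22) were lower, GDF15 in 1 of the 6 fits with a library left out. With vehicle 3 of the 37 target genes were lower and 8 higher, with a median of 0.14, beside 3.03% and 2.07% of all tested genes. The interaction term was below 0 for 1 of the 37 and above 0 for none. Under tunicamycin, of 15 reported mRNA substrates of the IRE1 nuclease 4 were lower and 2 higher, and 2 were lower without the third control or the third knockdown library.

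Lower and higher genes differed in how they behaved in cells that had no part in this comparison. In CARM1 knockout cells tunicamycin raised 663 of the 1481 lower genes (44.8%), where it raised 20.6% of all tested genes. Of the 244 secretory genes it raised 162 (66.4%), and 104 of these were among the 124 that were lower with the XBP1 knockdown. It lowered 254 of the lower genes (17.15%), where it lowered 18.8% of all tested genes. Of the 1210 higher genes 362 (29.9%) were lowered by tunicamycin in CARM1 knockout cells, and 292 (24.1%) were raised. Each of these shares was above that of all tested genes (18.8% and 20.6%). The CARM1 knockout libraries are not among the 6 compared, so these shares do not come from shared samples. The paper reports that CARM1 knockout weakened the response of a large part of the genes that tunicamycin induced. These shares may therefore differ from those of control cells.

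Promoter sequences were compared between lower and higher genes. XBP1s binds the UPR element with the core TGACGTGG, and ATF6 with NF-Y binds the ER stress response element, in which CCAAT and CCACG stand 9 bases apart. RefSeq promoters of GRCh38.p14, 250 bases before to 50 bases after each start, were searched on both strands, and a gene with several starts was counted once if any of them held the element. Of the tested genes 11768 had a promoter. The UPR element was found in 0.732% of the 34961 promoters in the reference and in 138 of the tested genes with a promoter (1.17%). It was found in 50 of 1121 lower genes (4.46%) and in 5 of 917 higher genes (0.545%). Read the other way, 50 of the 138 genes with the element were lower (36.2%) and 5 higher (3.62%). Among all 11768 tested genes with a promoter 1121 were lower and 917 higher. The median log2 fold change of the 138 was −0.18 with tunicamycin and 0.003 with vehicle. Without the third control library 40 were lower and 2 higher. Of the lower genes of the 8 secretory lists 16 of 107 held it (15%), and of the members that were not lower 3 of 99 (3.03%). The comparison element TGACGTCA, the cAMP response element, was in 1.85% of all promoters and in 3.65% of the tested genes, 3.75% of the lower and 3.82% of the higher genes. The shorter core GACGTG, which every TGACGTGG contains, was in 7.81% of all promoters, and in 13% of the tested, 23% of the lower and 12% of the higher genes. The AP-1 site TGAGTCA was in 4.92% of all promoters and, among the tested genes, in 4.95%, 4.91% of the lower and 5.13% of the higher. The C/EBP-ATF response element TGATGCAAT was in 0.237% of all promoters and in 24 tested genes (0.204%). None of these was lower and 3 were higher (0.327% of the higher genes).

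**Figure D3:**
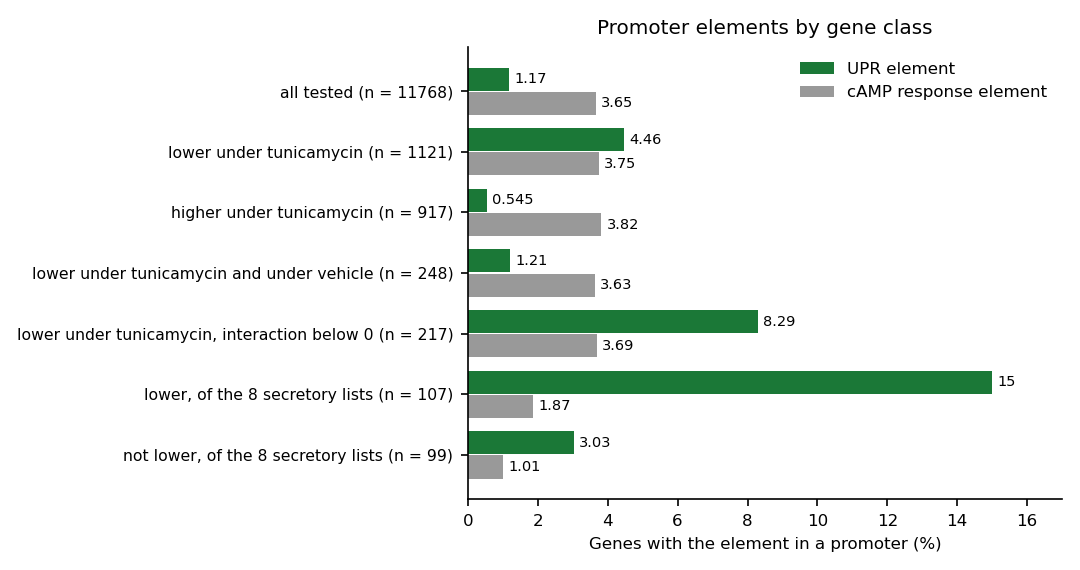
Share of genes (x axis, percent) with the UPR element (green) or the cAMP response element (grey) in a promoter, for the gene classes on the y axis, with the number of genes in each class. The UPR element was in 15% of the lower secretory genes, 4.46% of all lower genes and 1.21% of genes lower under both treatments; the cAMP response element stayed between 3.63% and 3.82% outside the secretory lists.

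The stretches below show the element in 5 lower genes of translocation, retrograde transport and folding, and the ER stress response element in HSPA5 and XBP1 itself. Each runs 5′ to 3′ on the strand of its gene, ends before the annotated start, and has the element in capitals; in the first 5 genes the element lies on the opposite strand and reads CCACGTCA. These are matches of letters and were not tested for binding.
COPB1 (chr11:14499812-14499899, minus strand, element starting 48 bases before the start): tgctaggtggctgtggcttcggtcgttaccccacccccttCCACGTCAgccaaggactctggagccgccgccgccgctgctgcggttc
COPB2 (chr3:139389796-139389883, minus strand, 163 bases before the first listed start): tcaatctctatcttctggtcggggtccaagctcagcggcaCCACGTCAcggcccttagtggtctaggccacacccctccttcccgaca
SRP19 (chr5:112861135-112861222, plus strand, 112 bases before the start): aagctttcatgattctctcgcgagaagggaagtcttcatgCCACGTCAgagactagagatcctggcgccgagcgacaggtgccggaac
KDELR3 (chr22:38468010-38468095, plus strand, 46 bases before the start): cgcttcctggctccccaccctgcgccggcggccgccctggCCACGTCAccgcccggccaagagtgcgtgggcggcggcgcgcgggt
DNAJC10 (chr2:182716092-182716179, plus strand, 125 bases before the start): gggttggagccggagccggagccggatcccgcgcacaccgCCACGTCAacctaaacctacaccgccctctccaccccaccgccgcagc
HSPA5 (chr9:125241351-125241449, minus strand, 66 bases before the start): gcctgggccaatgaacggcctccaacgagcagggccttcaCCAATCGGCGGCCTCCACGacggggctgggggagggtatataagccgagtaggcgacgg
XBP1 (chr22:28800570-28800661, minus strand, 52 bases before the start): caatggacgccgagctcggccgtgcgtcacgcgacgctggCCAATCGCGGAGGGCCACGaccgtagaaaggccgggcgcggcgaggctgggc

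COPB2, DNAJC10 and KDELR3 were described above with their values or changes, and COPB1 (334, 312 and 314 CPM against 238, 233 and 239 CPM; −0.43, adjusted p = 1.0e-05) and COPA (−0.53, adjusted p = 1.3e-06), with the element 6 bases after its start, are further COPI coat genes. Of the lower genes outside the secretory lists SMIM14, had the smallest p among those with the element (91.6, 107 and 98.9 CPM against 54.5, 55.3 and 53.0 CPM; −0.87, adjusted p = 2.6e-07). The complete ER stress response element was rarer, at 0.0772% of all promoters and 16 tested genes. Of these, 8 were lower, beside 8.55% of all tested genes, and none was higher, beside 6.99%. The lower ones were XBP1, SERP1 (−0.65), HSPA5, ERO1B, FICD (−0.85), CRELD2 (−0.45), ALG12 (−0.25) and HSP90B1. CALR, CANX and PDIA6 held the element too and were not called. COPA, COPB1, SMIM14, SERP1, FICD, CRELD2 and ALG12 were named after their values had been seen.

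Other genes differed between the cell lines with and without stress. Of the 1481 lower genes 317 (21.4%) were also lower with vehicle, beside 3.03% of all tested genes, and of the 1210 higher genes 224 (18.5%) were also higher, beside 2.07%. Called neither with vehicle nor for the interaction were 899 of the lower and 939 of the higher genes. For these the tests do not decide whether the difference depended on the stressor. Only 12 of the 317 also had an interaction term below 0, and 277 of the 1481 lower genes did in all, beside 1.67% of all tested genes. The difference that picked the 1481 enters this term and favours values below 0. Asking for a lower level with vehicle as well works the other way, so 12 and 277 were not compared. KRT18, a keratin of simple epithelia, was at 396, 399 and 416 CPM in control and 179, 171 and 173 CPM in knockdown cells under tunicamycin (−1.21 ± 0.05, SE, adjusted p = 6.4e-10), the smallest p of all, and differed by −1.19 with vehicle. Its partner KRT8 was lower by −1.25 and, with vehicle, by −1.61. CHP1, a calcineurin B-like protein, was at 47.2, 39.6 and 40.1 CPM against 14.3, 13.35 and 13.99 CPM (−1.60; −1.26 with vehicle). UCHL1, a deubiquitinase, was lower by −1.18 and −1.26, and ARL1, a Golgi GTPase, by −1.13 and −0.90. The imprinted RNA H19 (−1.59 and −1.85), the receptor kinase AXL (−1.26 and −1.47), CRYZ (−1.32 and −1.17), S100A4 (−1.28 and −1.32) and the protease inhibitor TIMP3 (−1.27 and −1.16) followed the same pattern. SIVA1, an apoptosis regulator, was 1 of the 12 with a larger difference under stress: lower by −0.78 with vehicle and by −1.38 with tunicamycin, with an interaction term of −0.62 (adjusted p = 0.0024).

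Among higher genes of this kind CDK6, a G1 kinase, was at 4.99, 4.87 and 4.48 CPM in control and 19.3, 19.4 and 18.04 CPM in knockdown cells (1.99 ± 0.13, SE, adjusted p = 5.5e-08; 1.72 with vehicle). AK4, a mitochondrial adenylate kinase, differed by 2.497 with tunicamycin and 2.34 with vehicle, the matrix proteoglycan VCAN by 1.55 and 1.55, the glycogen phosphorylase PYGL by 1.13 and 1.06, and the channel gene KCNMA1 by 1.01 and 0.97. The transcription factors PAX6 (1.30 and 0.95), PAX2 (0.92 and 0.59) and NKX2-1 (0.89 and 0.66) were also higher with both treatments. VIM, the mesenchymal intermediate filament, was at 443, 449 and 428 CPM against 696, 663 and 689 CPM (0.64; 0.39 with vehicle). Markers of cell identity moved in several directions. Of 26 tested epithelial and mesenchymal identity genes 6 were lower, 3 higher and 17 not called. Among all tested genes 8.55% were lower and 6.99% higher. KRT19 had 28 to 44 counts in the control libraries and 0 to 4 in the knockdown libraries. Of 8 tested fibroblast markers 6 were lower and 1, PDGFRA (0.42), was higher; their summed level was 2377 to 2423 CPM in control and 1964 to 2053 CPM in knockdown libraries, and FAP had no count in any. Leukocyte markers summed to at most 2.23 CPM and endothelial markers to at most 8.5 CPM in any library, with no call. The part of a changed mixture of cells in these differences was not tested. With 1 hairpin, an effect of lower XBP1 and other differences between the 2 cell lines cannot be told apart.

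**Figure D4:**
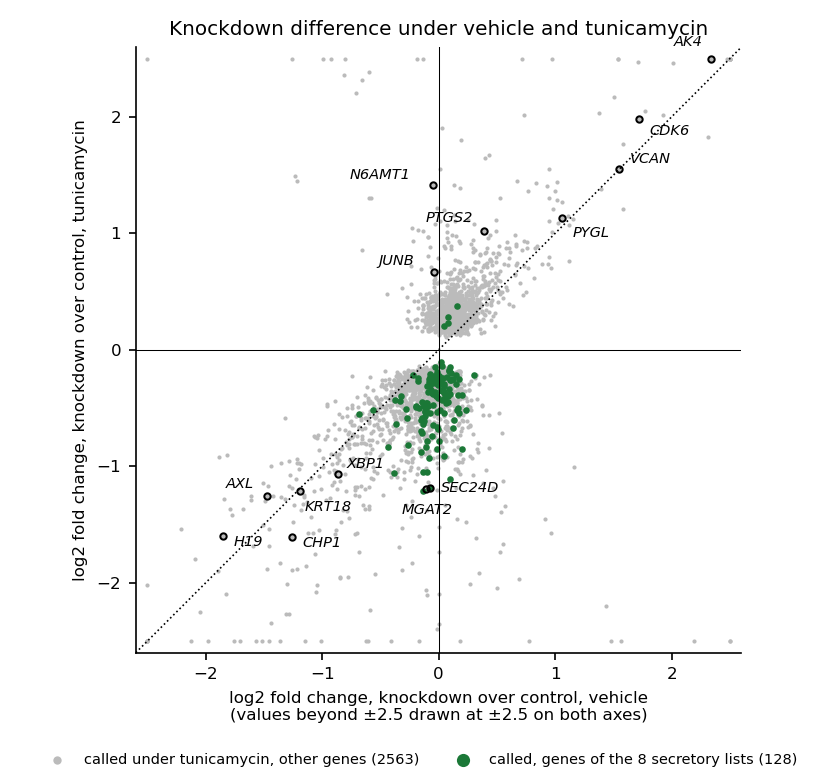
Log2 fold change of knockdown over control cells with vehicle (x axis) and with tunicamycin (y axis) for genes called under tunicamycin; the dotted line marks equal differences. The 128 called genes of the 8 secretory lists (green) gather near 0 on the vehicle axis, and KRT18, VCAN and AK4 lie near the dotted line.

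Immediate early genes were among the higher genes. Of 26 immediate early and AP-1 genes, which growth signals switch on quickly, 12 were higher with tunicamycin, beside 6.99% of all tested genes. None was lower, and the median was 0.44. Without the third control library 10 were higher. Of the 14 not called, 13 stayed under 10 CPM in every library. With vehicle 4 were higher, with a median of 0.07, beside 2.07% of all tested genes. The interaction term was above 0 for 6, beside 0.364%. In control cells tunicamycin left 9 of the 12 below their mean level with vehicle. The 12 were picked with the same control libraries, which favours low values there. In CARM1 knockout cells tunicamycin lowered 4 of the 12. JUNB, an AP-1 subunit, went from 52.6 ± 3.84 to 14.2 ± 3.03 CPM (SD, n = 3) in control cells and from 51.4 ± 3.39 to 22.5 ± 1.75 CPM in knockdown cells (0.67 under tunicamycin, adjusted p = 0.0028). DUSP6, a phosphatase that acts on ERK, was at 419, 422 and 398 CPM in control and 574, 632 and 646 CPM in knockdown cells (0.58, adjusted p = 7.8e-07), and was also higher with vehicle (0.28). SPRY4, an inhibitor of receptor kinase signalling (0.88, and 0.30 with vehicle), EGR1 (0.77, and 0.44 with vehicle) and IER2 (0.42, not called with vehicle) were also higher. The interaction term was not called for EGR1 (0.31, adjusted p = 0.32). Higher too was MYC, at 18.9, 22.0 and 20.4 CPM against 36.5, 30.0 and 30.1 CPM (0.66, adjusted p = 0.00034), which was named after its value had been seen.

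**Figure D5:**
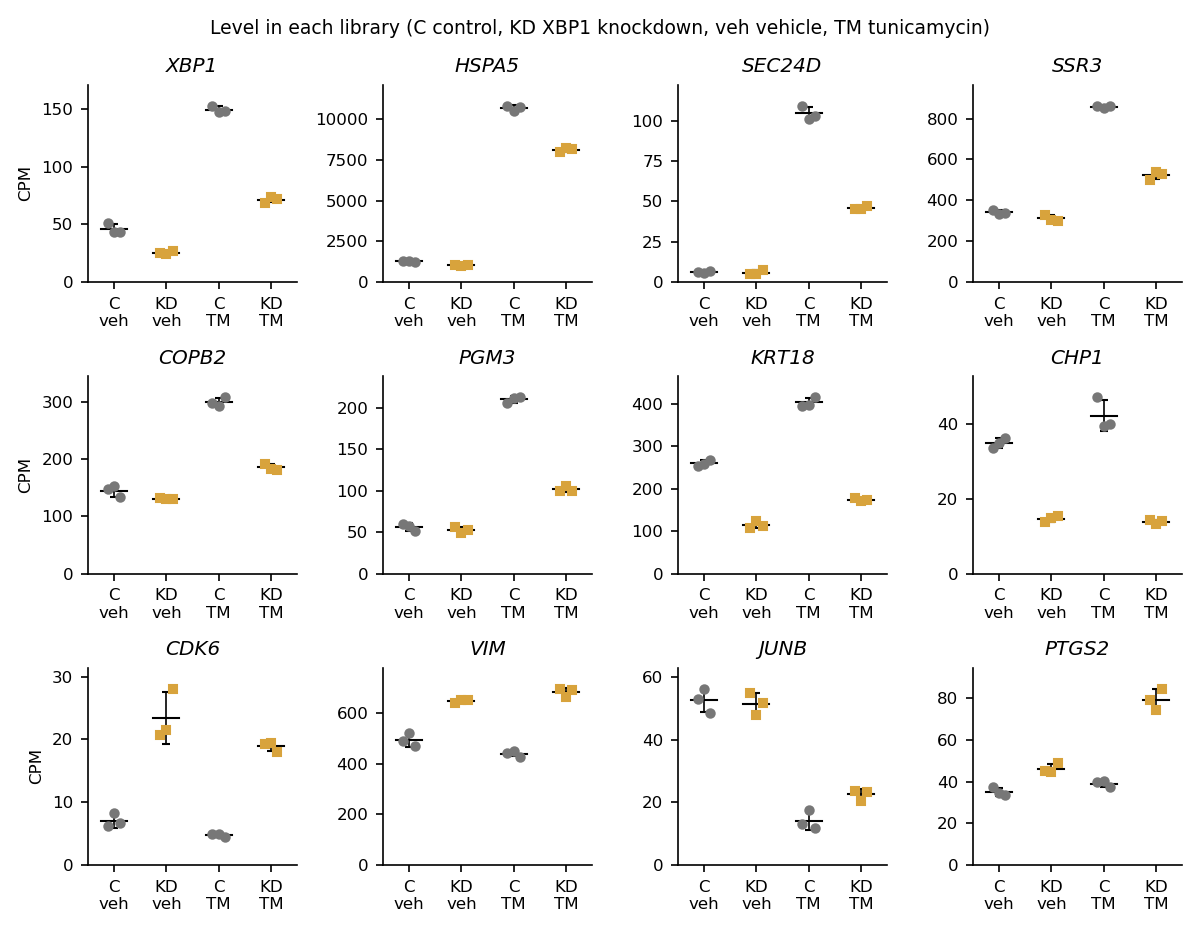
Level in CPM (y axis) of 12 genes in each of the 12 libraries, control cells in grey and XBP1 knockdown cells in ochre, with vehicle and with tunicamycin; the bar is the mean and the whisker the SD of 3 libraries. SEC24D, SSR3, COPB2 and PGM3 separated with tunicamycin, KRT18, CHP1, CDK6 and VIM with both treatments, and JUNB with tunicamycin alone.

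PTGS2, which encodes cyclooxygenase 2, was at 39.9, 40.2 and 37.2 CPM in control and 79.3, 74.2 and 84.7 CPM in knockdown cells (1.02 ± 0.07, SE, adjusted p = 8.1e-08), and by less with vehicle (0.39). It was 1 of 4 higher genes among 22 cytokine and NF-kB target genes, with RELB (0.36), NFKB1 (0.29) and NFKBIA (0.20), beside 6.99% of all tested genes. Without the third control or the second knockdown library 1 of the 22 was higher, and 2 without the second control or the third knockdown library. NFKBIA, the inhibitor of NF-kB, was lower with vehicle (−0.24) and higher with tunicamycin. It was 1 of 6 genes called in both treatments with opposite signs; HMGCS1, of cholesterol synthesis, was higher with vehicle (0.27) and lower with tunicamycin (−0.27). Of 33 genes of cholesterol and fatty acid synthesis 6 were lower, among them MSMO1 (−0.48), beside 8.55% of all tested genes. In the same list 4 were higher, beside 6.99%. Leaving out the third control or the second knockdown library left 3 lower.

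Lists of growth and metabolism are set beside the 8.55% of all tested genes that were lower and the 6.99% that were higher. With vehicle these shares were 3.03% and 2.07%. Ribosomal protein genes were higher in 15 of 76 cases and lower in 3 (median 0.08), against 10 and none with vehicle (median 0.10). Under tunicamycin 8 were higher and none lower without the third control library. Over all libraries left out in turn, 0 to 10 were lower and 2 to 20 higher, with 10 lower without the first knockdown library, 7 lower without the first control library, and 2 and 6 higher without the second and the third knockdown library. Among the lower ones RPS18 and RPL28 were uneven between libraries, RPS18 ranging from 332 to 981 CPM among knockdown libraries, and ribosomal genes have near-identical copies that counting can confuse. Of 47 DNA replication genes 10 were higher, among them MCM4 (0.32) and MCM2 (0.24), and 3 were lower, among them the licensing factor CDC6, at 303, 304 and 299 CPM against 232, 235 and 236 CPM (−0.37, adjusted p = 3.0e-05). Without the third knockdown library 5 were higher and 1 was lower, and without the first 5 were higher. With vehicle none of the 47 was called. Of 44 mitosis genes 12 were lower and 2 higher, against 7 and none with vehicle. Among the lower was TOP2A, at 1384, 1339 and 1332 CPM against 932, 1005 and 973 CPM (−0.48, and −0.50 with vehicle). Without the third knockdown library 4 were lower, without the first control library 7 (none higher), and none was higher without the third control or the second knockdown library. Matrix and adhesion genes were lower in 11 of 46 cases and higher in 4, against 9 and 2 with vehicle. Of 23 cytosolic heat shock genes 3 were lower (13.0%), among them the mitochondrial co-chaperonin gene HSPE1 (−0.47), and 2 higher (8.70%), shares near those of all tested genes, and none was higher without the third control library. Among 27 genes of the BCL2 family and death receptors 4 were lower, among them BIRC2, an inhibitor of apoptosis (−0.66), XIAP (−0.24) and MCL1 (−0.17), and 2 were higher, BAX (0.39) and TNFRSF10B. Without the second knockdown library 1 was lower and 1 higher, and without the third control or the third knockdown library 2 and 1. MCL1 was called in 1 and BAX in 2 of the 6 fits with a library left out. Of 43 lysosome and autophagy genes 5 were lower, among them WIPI1 (112, 119 and 119 CPM against 62.3, 64.6 and 72.0 CPM; −0.82), and 5 higher. Leaving out the third control library left 3 lower and 1 higher, without the first knockdown library 3 were lower, without the first control library 8 were lower, and without the third knockdown library 3 were higher.

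The remaining lists gave few calls, and are also set beside 8.55% lower and 6.99% higher among all tested genes. Glycolysis and hypoxia genes were lower in 3 of 38 cases, among them HIF1A (−0.60), and higher in 5, which included AK4, GPI (0.30) and LDHA (0.19). Cytosolic tRNA synthetases were higher in 4 of 20 cases and lower in 1, CARS1 (−0.18), against 4 and 1 with vehicle. Without the third knockdown library 2 were higher, and without the third control or the third knockdown library none was lower. Interferon-stimulated genes were lower in 3 of 31 cases, among them IFITM2 (38.3, 40.2 and 39.1 CPM against 18.7, 17.4 and 18.7 CPM; −1.10 with each treatment), and higher in 1, which kept its call only without the third knockdown library. Of 18 G1 regulators CDK6, CDKN2A (0.73) and CCND2 (0.21) were higher. Of 24 phospholipid genes PCYT1A (−0.40) was lower, and GPAM (0.43) and PTDSS1 (0.21) were higher, neither of them without the third control library. CKAP4 (615, 623 and 661 CPM against 329, 326 and 327 CPM; −0.95), RRBP1 (251, 254 and 269 CPM against 128, 121 and 133 CPM; −1.02) and NIBAN1 (−0.92) belonged to no list and were among the 10 lower genes with the smallest p. The first pair encode proteins of ER sheets and ribosome binding. CARM1 itself was higher in knockdown cells (133, 140 and 134 CPM against 166, 182 and 176 CPM; 0.37, adjusted p = 0.00018), a gene named after its value had been seen.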

How the data were processed

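The authors extracted total RNA, made 3′ mRNA libraries and sequenced them as 75 nt single reads. Reads were aligned to hg19. The deposited values are expected counts that the authors obtained with RSEM for each Ensembl gene, whole and not normalized; its version differs between the sources and is not given here. Libraries were grouped by their labels, and 0 columns were left unmapped.

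In edgeR 4.0.16 (R 4.3.3), genes were filtered with filterByExpr (minimum count 10), TMM factors applied, and quasi-likelihood F tests fitted to the 6 libraries of a comparison, or to 12 for the interaction. Benjamini-Hochberg adjustment covered all 17317 genes, with calls under 0.05. Each standard error was derived from the fold change and its F statistic. CPM used TMM factors of all 18 libraries. Scripts were tested on simulated data. Libraries were not treated as paired, as the labels state no pairing. With 3 against 3 the precision is set by the replicate spread.

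Members, motifs and the 31 gene lists (940 entries, 4 not matched) were chosen with earlier results of these data known. Genes were named when they were XBP1 or a UPR regulator, among the 12 lowest or 12 highest changes at a mean log2 CPM of at least 3 without overlap, the 10 smallest p per direction, up to 4 per list and direction, the 8 lowest or highest interaction terms, or called with opposite signs in the 2 treatments. Alternatives were DESeq2 1.42.0 or its size factors, no filter, at least 10 counts per library, an FDR of 1%, all libraries in one fit, a fold change of 1.5, a replicate block, and each library left out. A few genes that the rule names are not reported here.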

Additional observations from a re-analysis of the deposited data

Results flagged for a closer look

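For some genes the knockdown difference itself changed between vehicle and tunicamycin, by the interaction term of edgeR's fit over 12 libraries. The term was below 0 for 290 genes and above 0 for 63, or 1.67% and 0.364% of the genes tested. Among called terms of genes whose log2 CPM averaged 3 or more under tunicamycin, the 8 lowest belonged to ANKRD34B (−1.56), EAF2 (−1.46), RWDD2A (−1.36), FBXO16 (−1.29), GLRX (−1.28), B9D1 (−1.20), SEC24D (−1.14) and MGAT2 (−1.11). All 8 had higher means with tunicamycin than with vehicle in control cells. That rise enters the interaction term, so picking the lowest terms favours it. ANKRD34B, for example, averaged 1.27 and 1.27 CPM with vehicle in control and knockdown cells, and 22.5 and 7.77 CPM with tunicamycin. ANKRD34B, EAF2 (1.79 and 2.41 CPM) and RWDD2A (2.81 and 3.15 CPM) rested on few reads with vehicle.

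The 8 highest called terms at this level belonged to N6AMT1 (1.44), NIBAN1 (0.94), TRIM14 (0.83), APC2 (0.71), JUNB (0.69), CDC42EP3 (0.66), IER3 (0.65) and PTGS2 (0.61). N6AMT1, a methyltransferase gene, averaged 15.1 and 14.7 CPM with vehicle in control and knockdown cells, and 6.16 and 16.4 CPM with tunicamycin. NIBAN1 also rested on few reads with vehicle (3.11 and 0.83 CPM), and was lower in knockdown cells with both treatments (−1.89 and −0.92). APC2 and CDC42EP3 were lower with vehicle (−0.89 and −0.94) and not called with tunicamycin (−0.16 and −0.26).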

How the results depend on the processing

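No call of a named gene turned into a call in the other direction. Of 2592 values of named genes under the alternatives, without the FDR of 1% and the fold change of 1.5, 2398 stayed as they were, called or not called. A call was lost in 184 and gained in 10, and 55 of 192 called genes lost their call in at least 1 of these alternatives. The 2 stricter thresholds take further calls of named genes. HSPA5 (−0.39), for example, falls short of a fold change of 1.5. Under tunicamycin, lower and higher genes numbered 1237 and 975 with DESeq2 (1223 and 962 shared), 823 and 523 at an FDR of 1%, and 502 and 212 at a fold change of at least 1.5. Leaving out single libraries gave 906 to 1416 and 617 to 1055, lowest without the third control library (899 and 603 shared). For the interaction, leaving out single libraries gave 208 to 357 below 0 and 24 to 98 above 0. No filter gave 479 and 279, an FDR of 1% 155 and 12, a fold change of 1.5 115 and 16, and DESeq2 104 above 0. With vehicle, leaving out libraries gave 289 to 654 lower and 146 to 580 higher. An FDR of 1% gave 252 and 125, a fold change of 1.5 237 and 79, and for higher genes no filter gave 662 and all libraries in one fit 696. The tunicamycin response of CARM1 knockout cells gave 2875 to 3018 lower and 3105 to 3279 higher without single libraries, and 1058 and 1357 at a fold change of 1.5. Libraries were not paired by replicate number, as the labels state no pairing. Deviations of same-numbered libraries correlated at 0.005, 0.005 and −0.04, which cannot exclude a pairing. The replicate block gave 1525 lower and 1304 higher genes (1423 and 1160 shared) and 39 interaction terms above 0. The causes of these shifts were not tested. At these depths a gene with a few counts, such as the absent ovarian markers, allows no statement on its change.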
